A study of Mus musculus with 12 samples.

Results

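The RNA levels of Ptpn13 and of 6 other non-receptor protein tyrosine phosphatase genes, Ptpn1, Ptpn2, Ptpn9, Ptpn11, Ptpn12 and Ptpn14, are described across 4 mouse cell lines. The 7 genes are all present among the 12208 genes of the count table, and all 7 passed the filter on low counts. Ptpn13 was selected from the measured values, because its level was much higher in the lines that carry introduced Zeb1. Its levels against the vector line are therefore given as a description with no test. The other 6 were taken as relatives of Ptpn13, to show whether they share its pattern. The cells are 393P, a mouse lung tumour line labelled as an epithelial line that does not metastasise, and no treatment was given to any of them. The control line carries a GFP vector (vector), and the other lines carry wild-type Zeb1 (WT), Zeb1_deficient (deficient) or Zeb1_mimetic (mimetic). The series title concerns acetylation of the transcription factor Zeb1, and the last pair is read here as forms that cannot be acetylated or that imitate acetylation. Each line had 3 libraries labelled as biological replicates, although the design text speaks of 2 replicates. Each form is represented by 1 line, so the form and other differences between lines cannot be told apart, and p-values measure only the spread between libraries of a line, which may be technical.

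Protein tyrosine phosphatases remove phosphate from tyrosine residues and so oppose tyrosine kinases. The classical ones share a catalytic domain with a reactive cysteine, and are divided into receptor types, which cross the plasma membrane, and non-receptor types, whose flanking domains place them in the cell. Ptpn13 (also known as PTP-BL, PTPL1 or FAP-1) is a large submembranous scaffold with a KIND domain, a FERM domain, several PDZ domains and a phosphatase domain at its C-terminal end. It has been studied in tumours both as a brake on kinase signalling and as a partner of the death receptor Fas. In the annotation its longest coding sequence encodes 2451 residues, against 432 for Ptpn1, 406 for Ptpn2, 593 for Ptpn9, 597 for Ptpn11, 775 for Ptpn12 and 1189 for Ptpn14.

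Zeb1 binds E-box sequences with a CACCT core, so promoter letters are shown for Ptpn13, whose RNA differed most between lines, for Ptpn11, whose profile over the libraries lay closest to that of Ptpn13 among the 6 relatives, and for Ptpn14, which was lower in WT than in each of the other lines. RefSeq promoter entries (GRCm38.p6, 250 bases before to 50 bases after the annotated start) were found for 5 of the 7 genes. Each is printed on the strand of its gene, 5′ to 3′, and capitals mark CACCT and GGGCGG on either strand. GGGCGG is the GC-box letters bound by factors of the Sp family.
Ptpn13, chr5:103424942-103425241, plus strand: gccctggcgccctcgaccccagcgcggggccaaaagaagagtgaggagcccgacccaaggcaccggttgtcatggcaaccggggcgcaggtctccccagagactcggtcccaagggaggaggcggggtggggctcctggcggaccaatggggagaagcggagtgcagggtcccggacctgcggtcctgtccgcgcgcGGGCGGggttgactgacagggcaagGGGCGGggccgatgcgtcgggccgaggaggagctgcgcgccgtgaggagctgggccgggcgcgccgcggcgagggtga
Ptpn11, chr5:121191348-121191647, minus strand: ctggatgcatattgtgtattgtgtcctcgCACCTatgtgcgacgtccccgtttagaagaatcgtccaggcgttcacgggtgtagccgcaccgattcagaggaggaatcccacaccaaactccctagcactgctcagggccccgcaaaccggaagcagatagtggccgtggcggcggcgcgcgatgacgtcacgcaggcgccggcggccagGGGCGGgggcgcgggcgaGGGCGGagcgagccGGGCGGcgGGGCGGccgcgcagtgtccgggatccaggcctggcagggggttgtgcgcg
Ptpn14, chr1:189728018-189728317, plus strand: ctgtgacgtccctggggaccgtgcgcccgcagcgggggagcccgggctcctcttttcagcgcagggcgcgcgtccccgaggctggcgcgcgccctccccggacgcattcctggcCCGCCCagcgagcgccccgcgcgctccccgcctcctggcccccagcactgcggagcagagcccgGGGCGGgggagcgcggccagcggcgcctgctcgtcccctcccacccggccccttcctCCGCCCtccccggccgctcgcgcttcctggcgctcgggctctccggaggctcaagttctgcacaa

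The full E-box CAGGTG, searched on both strands and containing the shorter CACCT on its opposite strand, had 0 matches in the windows of Ptpn13, Ptpn1, Ptpn9, Ptpn11 and Ptpn14, and 20.2% of the 32851 mouse promoter windows of the same length held it. CACCT was found 1 time in Ptpn11 and 0 times in the other 4 windows, against 51.9% of all windows with at least 1 match. GGGCGG occurred 2 times in Ptpn13, 2 in Ptpn1, 2 in Ptpn9, 4 in Ptpn11 and 3 in Ptpn14, while 35.7% of all windows held it. These 5 windows were rich in G and C, from 67.7% to 78.3% (74% in Ptpn13), against a median of 52.7%. A match is a description of the letters, and no match says only that they are not in this window.

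RNA was measured by 3′ tag sequencing, which counts tags near the 3′ end of a transcript, so that a count stands for transcripts and is not divided by length. Levels are given as CPM, counts per 1 M counts after TMM scaling, as mean ± SD over n = 3 libraries. The total ran from 24.4 to 39 M counts per library, and the mimetic libraries were the shallowest. The epithelial keratins and E-cadherin among the fixed markers, 5 of 7 in the table, summed to 9051 to 10470 CPM in vector, 7688 to 7816 in deficient, 5563 to 5735 in mimetic and 4166 to 4320 in WT. For Zeb1 itself the means were 31.2 ± 2.8 CPM (vector), 244 ± 6.9 (WT), 484 ± 13 (deficient) and 228 ± 12 (mimetic). Introduced and native Zeb1 transcripts were not told apart, and how fully 3′ tags count the introduced ones is not known here. Differences between lines were common, so that 64.6% of 12027 tested genes were called in WT against vector, 58.2% in deficient against vector and 59.5% in mimetic against vector. Called means a Benjamini-Hochberg adjusted p under 0.05 in edgeR's quasi-likelihood test, two-sided, over all tested genes, and rose and fell are used of called genes alone. These comparisons share the vector libraries.

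Ptpn13 (chromosome 5, 103425192 to 103598303, plus strand, GRCm38) had a low level in vector and a high one in both mutant lines. In the vector libraries it had 2.42, 2.67 and 1.64 CPM, from 80, 87 and 62 counts. In WT it had 25.5, 24.4 and 24.4 CPM. In deficient it had 177, 174 and 174 CPM, and in mimetic 123, 134 and 134 CPM. Each line thus occupied a range of its own, in the order deficient, mimetic, WT and vector. No library of one line overlapped those of another. The gap from vector follows from the gene being picked for its rise. How many of all genes separate in this way was not counted, for Ptpn13 or for the genes below. The levels against vector were 11.2-fold higher in WT (log2 fold change 3.48, SE 0.10), 78.8-fold higher in deficient (6.30, SE 0.09) and 58.8-fold higher in mimetic (5.88, SE 0.09). Among all 12027 tested genes, ordered from the highest log2 fold change, these placed Ptpn13 at rank 57, 5 and 9. The ranks rest on the same rise that selected the gene, and so add no support to it. The vector level rested on 62 to 87 counts a library, and its SD was 24.1% of its mean, against 2.45% in WT, 0.802% in deficient and 4.76% in mimetic.

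**Figure D1:**
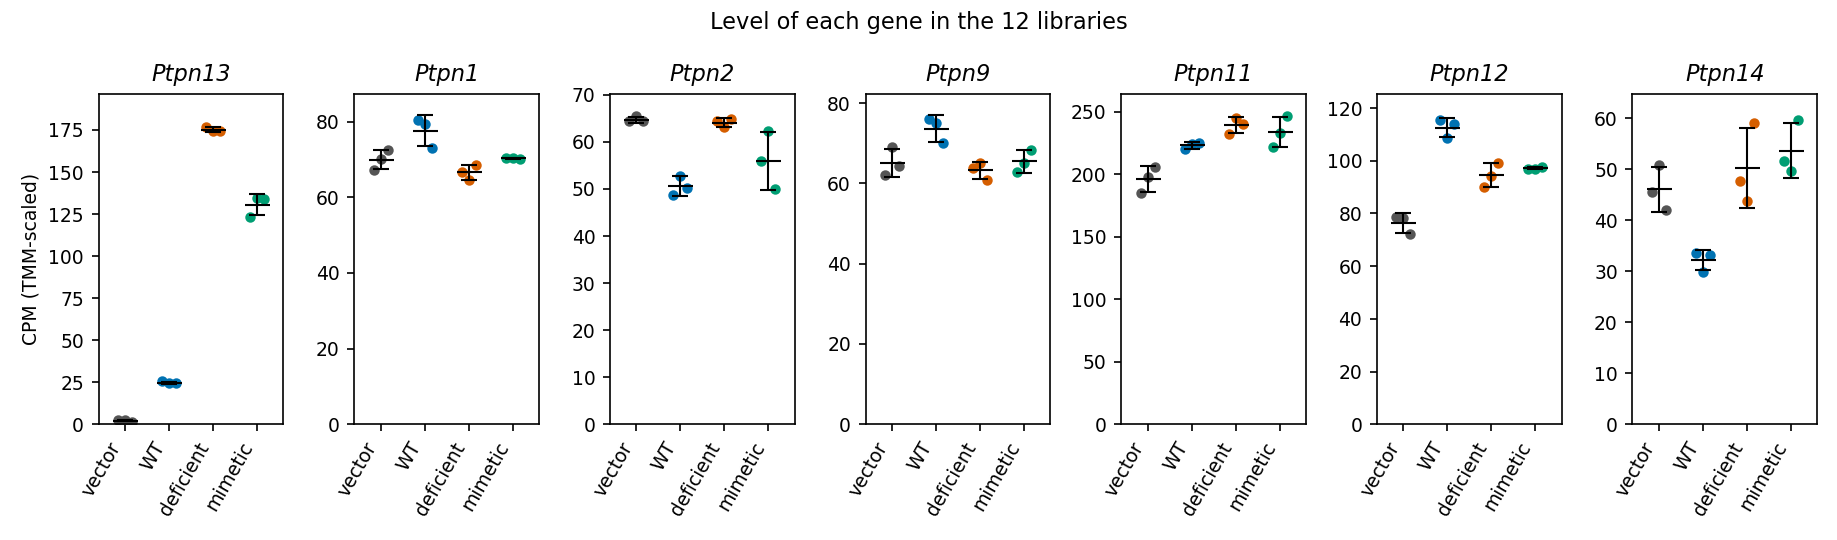
Level of Ptpn13, Ptpn1, Ptpn2, Ptpn9, Ptpn11, Ptpn12 and Ptpn14 in the 12 libraries, in CPM after TMM scaling, with 1 panel per gene and its own axis from 0. Points are libraries, the wide dash is the mean and bars are SD (n = 3 per line). Ptpn13 climbs from about 2.24 CPM in vector to 175 in deficient, while Ptpn14 and Ptpn2 have their lowest level in WT.

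The rise over vector selected Ptpn13. The rule did not name an order among the Zeb1 lines, but the same libraries enter both. Picking a gene for a large rise in these lines can favour gaps between them. The p-values of Ptpn13 that follow are therefore not free of the selection. Ptpn13 was 7.07-fold higher in deficient than in WT (log2 fold change 2.82, SE 0.07, adjusted p = 8.31e-18) and 5.27-fold higher in mimetic than in WT (2.40, SE 0.07, adjusted p = 2.58e-16), by edgeR's quasi-likelihood test. Mimetic lay 1.34-fold below deficient (-0.42, SE 0.06, adjusted p = 1.91e-05). In these comparisons 53.8%, 44.9% and 27.4% of all genes were called. Zeb1 RNA was also highest in deficient and lowest in vector. It was 1.98-fold higher in deficient than in WT (adjusted p = 2.07e-12), and the difference of mimetic from WT was -0.10 log2 units (SE 0.05, adjusted p = 0.14; 0.0384 in a fit of those lines alone), where the mean level of Ptpn13 was 24.8 ± 0.61 CPM in WT and 131 ± 6.2 in mimetic. Whether the amount of Zeb1 RNA bears on Ptpn13 was not tested.

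Tags of Ptpn13 made up 0.313% to 0.501% of the summed tags of the 7 genes in the vector libraries, 4.11% to 4.25% in WT, 22.7% to 23.8% in deficient and 18.1% to 18.9% in mimetic. Over the 15 tested genes of the non-receptor class it stood at place 13 by level in each vector library, 12 in each WT library and 2 in each mutant library, behind Ptpn11. The other 6 genes together summed to 519 ± 14 CPM in vector, 570 ± 4.7 in WT, 578 ± 14 in deficient libraries and 576.5 ± 16 in mimetic, and the 7 genes to 521 ± 14, 595 ± 5.2, 753 ± 13 and 707 ± 22. Most of the extra tags of the mutant lines thus belonged to Ptpn13, a share that follows from the gene being picked for its rise.

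**Figure D2:**
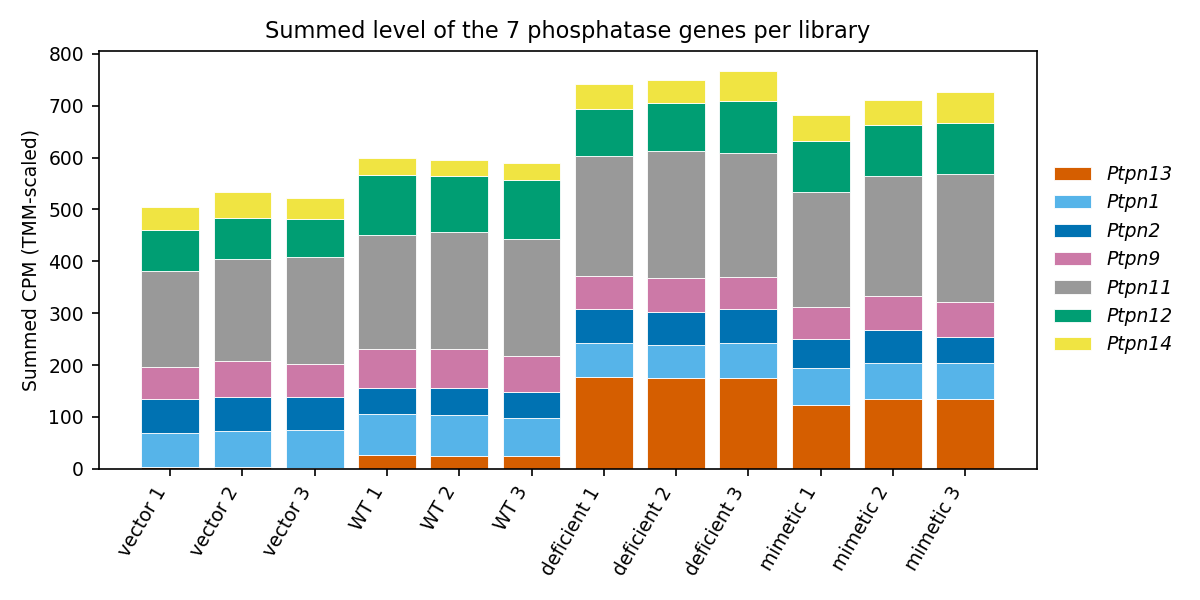
Summed level of the 7 genes in each library, in CPM after TMM scaling, with 1 stacked bar per library and 1 colour per gene. The Ptpn13 block is barely visible in vector, where it is at most 0.501% of the sum, and holds 22.7% to 23.8% of it in deficient.

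Ptpn1 and Ptpn2 are close relatives that act on cytokine and insulin signalling, Ptpn1 from the endoplasmic reticulum and Ptpn2 largely from the nucleus. Ptpn1 (chromosome 2, 167932057 to 167979385) had 67.3, 70.2 and 72.5 CPM in vector, 80.5, 79.3 and 72.9 in WT, 66.6, 64.7 and 68.7 in deficient libraries and 70.4, 70.4 and 70.1 in mimetic. The WT libraries were the highest, and the nearest vector library lay just under the lowest of them. Ptpn1 rose in WT over vector by 0.15 log2 units (SE 0.05, adjusted p = 0.0156). It was lower in deficient than in WT (-0.22, SE 0.05, adjusted p = 0.00124) and lower in mimetic than in WT (-0.14, SE 0.05, adjusted p = 0.0301). Against vector it differed by -0.07 in deficient (SE 0.05, adjusted p = 0.247) and by 0.01 in mimetic (SE 0.05, adjusted p = 0.926). Leaving out vector replicate 1 ended the call in WT against vector (adjusted p = 0.0759), as did leaving out WT replicate 1 (0.0672) or WT replicate 2 (0.0542). That in mimetic against WT was lost without WT replicate 1 (0.102), WT replicate 2 (0.085) or any 1 of the mimetic replicates (0.0645, 0.0653 and 0.065), and with scaling by library size only (0.177).

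Ptpn2 (chromosome 18, 67665511 to 67724595) went the other way in WT. It had 64.4, 65.5 and 64.4 CPM in vector, 48.8, 52.9 and 50.3 in WT, 64.4, 63.1 and 64.8 in deficient libraries and 55.9, 62.2 and 49.9 in mimetic. Vector and deficient overlapped, WT lay wholly below both, and the mimetic libraries were spread from the WT range to just under that of deficient. Ptpn2 fell in WT against vector by 0.35 log2 units (SE 0.06, adjusted p = 6.7e-05), 1.28-fold, and was 1.26-fold higher in deficient than in WT (adjusted p = 0.000166). It differed between deficient and vector by -0.01 (SE 0.06, adjusted p = 0.862) and between mimetic and WT by 0.14 (SE 0.06, adjusted p = 0.0782). The values for mimetic depended on replicate 3, the lowest, and on replicate 2, the highest. Without replicate 2 the difference was 0.06 from WT (adjusted p = 0.477), -0.29 from vector (adjusted p = 0.000691) and -0.28 from deficient (adjusted p = 0.00377). Ptpn2 was called lower in mimetic than in vector (-0.21, SE 0.06, adjusted p = 0.00832), a call lost without mimetic replicate 3 (adjusted p = 0.0777) and with scaling by library size only (0.0728). Without replicate 3 the difference from WT was called (0.22, adjusted p = 0.00781). It was also called with library size only (0.2, adjusted p = 0.0162) and with at least 5 CPM in 3 libraries (0.16, adjusted p = 0.0456). The call in mimetic against deficient (-0.195, SE 0.06, adjusted p = 0.0294) was lost without mimetic replicate 1 (0.0732) or 3 (0.189), without deficient replicate 1 (0.0687), 2 (0.0531) or 3 (0.0624), and with library size only (0.0574).

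Ptpn9, a phosphatase of secretory vesicles with a lipid-binding CRAL-TRIO domain, showed small differences (chromosome 9, 56994923 to 57062807). It had 62.1, 68.9 and 64.4 CPM in vector, 76, 75 and 69.9 in WT, 63.8, 65 and 60.9 in deficient libraries and 62.8, 65.2 and 68.4 in mimetic. WT held the 3 highest libraries, and the other lines overlapped. Ptpn9 rose in WT over vector by 0.18 log2 units (SE 0.06, adjusted p = 0.00836) and was lower than WT in deficient (-0.22, SE 0.06, adjusted p = 0.00232) and in mimetic (-0.17, SE 0.06, adjusted p = 0.0172). Deficient and mimetic differed from vector by -0.04 (adjusted p = 0.528) and 0.01 (adjusted p = 0.927). Leaving out vector replicate 1 ended the call in WT against vector (adjusted p = 0.0502), and that in mimetic against WT was lost without WT replicate 1 (0.0585) or mimetic replicate 1 (0.0802) and with library size only (0.101).

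Ptpn11 encodes SHP2, the phosphatase with paired SH2 domains that relays growth factor receptors to RAS and ERK, and was the most abundant member in each library (chromosome 5, 121130533 to 121191397, minus strand). It had 185, 198 and 206 CPM in vector, 220, 225 and 225 in WT, 232, 245 and 241 in deficient libraries and 222, 233 and 247 in mimetic. All 9 libraries of the Zeb1 lines lay above the vector libraries. Ptpn11 rose in WT by 0.18 log2 units (SE 0.05, adjusted p = 0.00162), in deficient by 0.28 (SE 0.05, adjusted p = 2.46e-05) and in mimetic by 0.25 (SE 0.05, adjusted p = 9.56e-05), which is 1.14-fold, 1.22-fold and 1.19-fold. Among the Zeb1 lines the differences were 0.10 for deficient over WT (SE 0.05, adjusted p = 0.0751), 0.07 for mimetic over WT (SE 0.05, adjusted p = 0.254) and -0.03 for mimetic over deficient (SE 0.05, adjusted p = 0.648). Deficient over WT was called without vector replicate 3 (adjusted p = 0.0473).

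Ptpn12 and Ptpn14 are tied to adhesion and the cytoskeleton. Ptpn12 is PTP-PEST, which acts on p130Cas and other focal adhesion proteins (chromosome 5, 20986645 to 21055911, minus strand). It had 78.7, 78.4 and 72.2 CPM in vector, 115.5, 109 and 114 in WT, 90.2, 94.2 and 99.3 in deficient libraries and 96.9, 97 and 97.8 in mimetic. The vector libraries were lowest and the WT libraries highest, with both mutants between them. Ptpn12 rose 1.47-fold in WT (log2 fold change 0.56, SE 0.05, adjusted p = 4.18e-09), 1.24-fold in deficient (0.31, SE 0.05, adjusted p = 2.23e-05) and 1.27-fold in mimetic (0.35, SE 0.05, adjusted p = 4.68e-06). It was lower than WT in deficient (-0.25, SE 0.05, adjusted p = 0.000216) and in mimetic (-0.21, SE 0.05, adjusted p = 0.00158). Mimetic and deficient differed by 0.04 (SE 0.05, adjusted p = 0.589).

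Ptpn14, a FERM-domain phosphatase that binds the growth regulator YAP, had its lowest level in WT (chromosome 1, 189728268 to 189876695). It had 45.5, 50.7 and 41.9 CPM in vector, 33.5, 29.9 and 33.1 in WT, 47.7, 43.8 and 59 in deficient libraries and 51.6, 49.7 and 59.7 in mimetic. The WT libraries lay below those of the other lines, and vector, deficient and mimetic overlapped. Ptpn14 fell 1.43-fold in WT against vector (log2 fold change -0.52, SE 0.10, adjusted p = 9.71e-05). It was 1.56-fold higher in deficient than in WT (0.64, SE 0.10, adjusted p = 1.34e-05) and 1.67-fold higher in mimetic than in WT (0.74, SE 0.10, adjusted p = 3.85e-06). Against vector the differences were 0.12 in deficient (SE 0.10, adjusted p = 0.272) and 0.22 in mimetic (SE 0.10, adjusted p = 0.0511). The second was called without vector replicate 2 (adjusted p = 0.0156), deficient replicate 2 (0.0374) or 3 (0.0174), or mimetic replicate 2 (0.0372), and with DESeq2 (0.0331) and the other alternatives apart from the replicate block.

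In WT against vector all 6 relatives were called, 4 higher and 2 lower. In deficient 2 of 6 were called, both higher, and in mimetic 3 of 6, with 2 higher and 1 lower. These stand beside 64.6% of all tested genes in WT (31% higher, 33.6% lower), 58.2% in deficient (28.4% higher, 29.8% lower) and 59.5% in mimetic (28.6% higher, 30.9% lower). The count in mimetic leaves out Ptpn14 (adjusted p = 0.0511 in edgeR). It was called higher there with DESeq2 (0.0331) and with most other alternatives of processing. Against WT, 5 of 6 were called in deficient (2 higher, 3 lower), beside 53.8% of all genes (27.5% higher, 26.3% lower). Of the same 6, 4 were called in mimetic against WT (1 higher, 3 lower), beside 44.9% (23.1% higher, 21.8% lower), and 2 without WT replicate 1 or mimetic replicate 1. Between mimetic and deficient 1 of 6 was called, and it was lower, beside 27.4% (12.6% higher, 14.9% lower). That count was 0 without any 1 of the deficient replicates or without mimetic replicate 1 or 3. None (0 of 6) differed by as much as 2-fold in any comparison, beside 13.1%, 9.16% and 9.95% of all genes in WT, deficient and mimetic against vector, 3.43% in mimetic against deficient, 6.8% in mimetic against WT and 9.64% in deficient against WT, so a count of 0 among 6 is near the background. The largest size was 0.74 log2 units, for Ptpn14 in mimetic against WT. Ptpn11 and Ptpn12 rose in all 3 Zeb1 lines, as did 16.6% of all genes. The split of all calls depends on the scaling for mimetic: with library size only, 59.1% in place of 48% of the calls against vector were higher, 56.8% in place of 45.8% against deficient and 63.9% in place of 51.5% against WT. The median of the 6 in the comparisons of WT, deficient and mimetic with vector was 0.16, 0.06 and 0.11, where that of all genes was -0.01, 0 and 0.

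**Figure D3:**
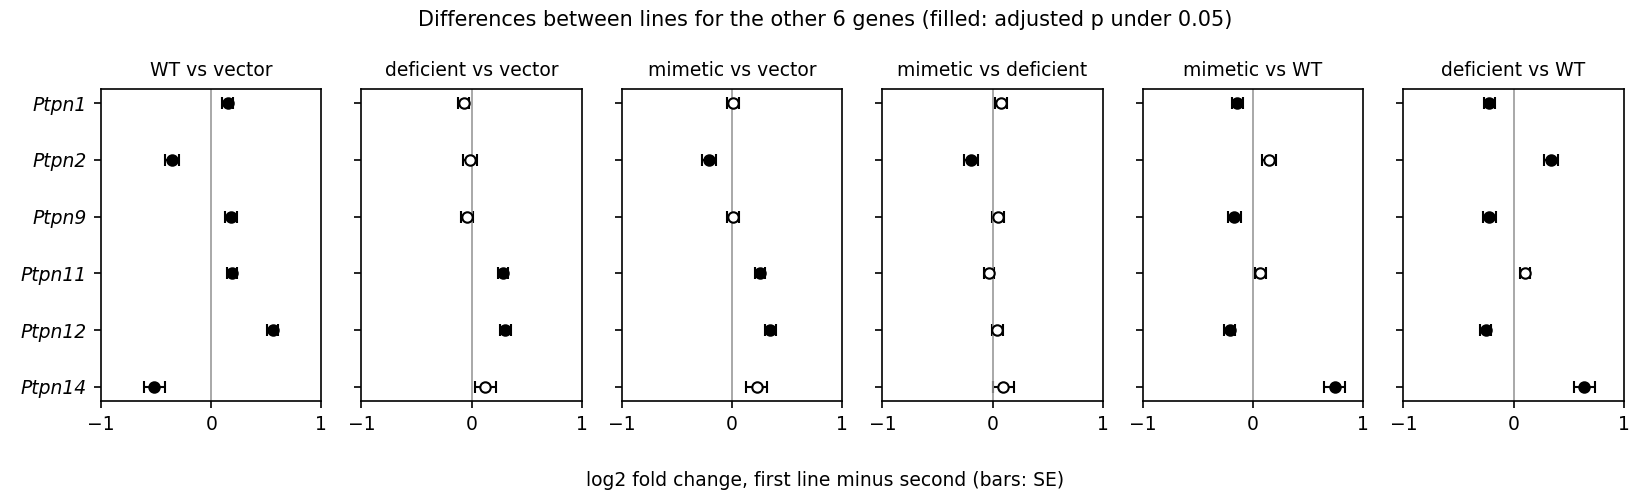
Log2 fold change of Ptpn1, Ptpn2, Ptpn9, Ptpn11, Ptpn12 and Ptpn14 in the 6 comparisons between lines, with 1 panel per comparison. Points show the first line minus the second, bars are the standard error, and filled points have an adjusted p under 0.05 in edgeR. All values lie within 1 log2 unit, and Ptpn2 and Ptpn14 are both below 0 in WT vs vector and above 0 in deficient vs WT.

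Of 10 further non-receptor tyrosine phosphatase genes listed, 8 were tested. In WT 3 rose and 2 fell, in deficient 2 rose and 2 fell, and in mimetic 2 rose and 2 fell, with medians of -0.15, 0.04 and -0.16. Of all tested genes 31% rose and 33.6% fell in WT, 28.4% and 29.8% in deficient, and 28.6% and 30.9% in mimetic, and the list counts that follow stand beside these shares. Ptpn22, a phosphatase best known from lymphocytes, had 22.6 to 23.7 CPM in the vector libraries, 73.1 to 74.3 in WT, 72.5 to 73.2 in deficient and 50.9 to 51.6 in mimetic. All libraries of the Zeb1 lines were above those of vector, and Ptpn22 rose 3.18-fold in WT (adjusted p = 1.65e-16), 3.15-fold in deficient (adjusted p = 4.81e-16) and 2.21-fold in mimetic (adjusted p = 1.32e-13). Between deficient and WT, Ptpn22 differed by -0.01 log2 units (SE 0.05, adjusted p = 0.861) and was lower in mimetic than in WT (-0.52, SE 0.05, adjusted p = 3.58e-08). Of 6 immune markers listed, 3 are in the table (Ptpn6, Ptpn22 and Cd68), and the pan-leukocyte marker Ptprc is not analysed here. Ptpn6, known from blood cells, was 44.5 ± 2.7 CPM in vector, and rose in WT to 54.5 ± 3.8 (adjusted p = 0.000571), with 42.1 ± 1 in deficient (adjusted p = 0.294) and 44.8 ± 2.4 in mimetic (adjusted p = 0.923). The macrophage marker Cd68 was 6.92 ± 1.3 CPM in vector, 2.49 ± 0.47 in WT, 5.73 ± 0.99 in deficient libraries and 3.9 ± 0.16 in mimetic, and the part of immune cells in the Ptpn22 level was not tested.

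Ptpn4 and Ptpn3 pair a FERM and a PDZ domain with the phosphatase domain, as Ptpn13 does, and both went down. Ptpn4 had 73.9 ± 6.2 CPM in vector and fell 1.66-fold in WT (adjusted p = 8.79e-09), 1.5-fold in deficient (adjusted p = 3.14e-07) and 1.5-fold in mimetic (adjusted p = 2.95e-07). Ptpn3 had 32.1 ± 1.1 CPM in vector and fell 1.46-fold in WT (adjusted p = 3.08e-06), 1.15-fold in deficient (adjusted p = 0.028) and 1.48-fold in mimetic (adjusted p = 2.69e-06). The call of Ptpn3 in deficient was lost without vector replicate 1 (adjusted p = 0.0959) or 2 (0.0519), without deficient replicate 2 (0.142) and with library size only (0.082).

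Among the receptor types, 12 of 21 listed genes were tested. In WT 5 rose and 5 fell, in deficient 6 rose and 5 fell, and in mimetic 5 rose and 2 fell, with medians of -0.06, 0.27 and 0.06. Without vector replicate 3 the falls in mimetic numbered 4. Ptprm, a homophilic adhesion receptor, rose from 20.5 ± 0.51 CPM in vector to 56.7 ± 1 in WT, 46.3 ± 1.5 in deficient libraries and 46.7 ± 2.8 in mimetic. Ptpru, of the same subfamily, fell from 16.6 ± 0.54 CPM to 3.26 ± 0.23, 4.71 ± 0.24 and 6.29 ± 1.4 in the same order. Ptpre fell from 53.1 ± 3.9 CPM to 19.7 ± 0.32, 29.6 ± 1.2 and 21.9 ± 1.1. All of these falls and rises had adjusted p-values of at most 1.32e-08 in edgeR. The summed level of the tested receptor types was 998.5 ± 22.5 CPM in vector, 1006 ± 17.6 in WT, 1101 ± 28.3 in deficient libraries and 1058 ± 27.3 in mimetic ones.

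**Figure D4:**
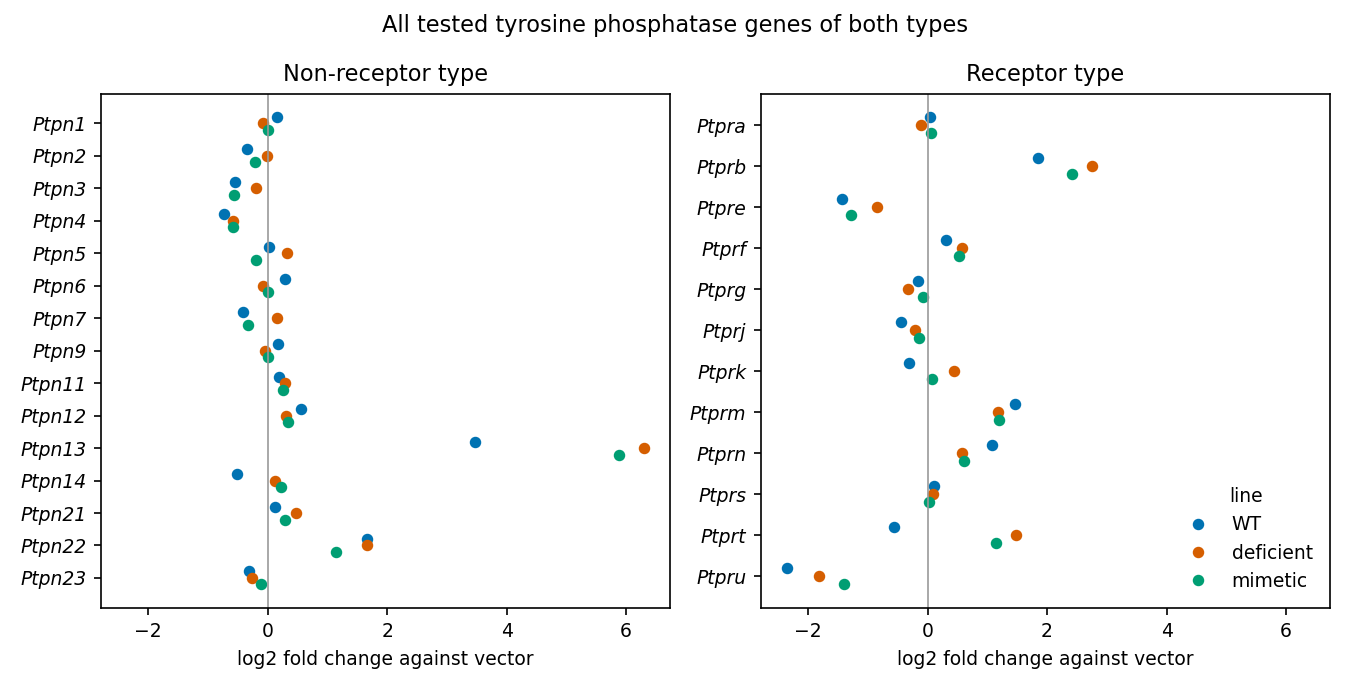
Log2 fold change against vector of all 15 tested non-receptor genes and all 12 tested receptor-type tyrosine phosphatase genes, with 1 point per Zeb1 line. Ptpn13 lies between 3.48 and 6.30, Ptpn22 between 1.14 and 1.67, and Ptpru between -2.36 and -1.40.

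The genes around Ptpn13 on chromosome 5 were examined for differences of their own. The nearest gene of the table after it, Aff1, a subunit of transcription elongation complexes, starts 94.1 kb beyond its end. Aff1 had 101 ± 9.3 CPM in vector and 101 ± 1.5 in WT (log2 fold change 0.00, adjusted p = 0.992), and rose to 129 ± 4.6 in deficient (0.36, SE 0.06, adjusted p = 2.02e-05) and 121 ± 6.3 in mimetic (0.27, SE 0.06, adjusted p = 0.000435). Klhl8, 263.7 kb away, rose by 0.62, 0.50 and 0.45 log2 units in WT, deficient and mimetic (adjusted p = 0.000222, 0.0021 and 0.0047). Hsd17b11, 391.5 kb away, was not called in any of the 3 lines (adjusted p = 0.175, 0.722 and 0.2). On the other side the nearest gene of the table was Wdfy3, 1355.3 kb away, which was not called either (adjusted p = 0.883, 0.117 and 0.123). The vector libraries of Wdfy3 were spread (76.5 ± 14 CPM), and it was called lower in deficient without vector replicate 3 (-0.32, adjusted p = 0.000627) and higher in mimetic without vector replicate 2 (0.27, adjusted p = 0.0232). Beyond it, Agpat9 rose in deficient (0.92, SE 0.11, adjusted p = 8.02e-07) and was not called in WT or mimetic (adjusted p = 0.235 and 0.124; in mimetic 0.0435 without vector replicate 3), while Fam175a rose in WT, deficient and mimetic by 0.58, 0.42 and 0.71. Agpat9 and Fam175a lie 2526.1 and 2604.2 kb away. All 6 neighbours thus stayed under 1 log2 unit in the main fit, and Agpat9 in deficient ranged from 0.84 to 1.01 with 1 library left out. Of all tested genes, 13.1%, 9.16% and 9.95% differed by at least 2-fold in WT, deficient and mimetic against vector, so this is near the background. The annotation places the gene Gm42620 on the opposite strand, overlapping Ptpn13. Counting strand is not given in the sources used here, so tags of the 2 cannot be told apart. The same holds for Gm10658 at Ptpn9, Gm43216 at Ptpn12 and Gm26574 at Ptpn14, each on the opposite strand, and for Gm42930 at Ptpn11 and Gm30280 at Ptpn14 on the same strand. None of these overlapping genes is among the genes of the table.

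Genes listed here around Ptpn13, as partners, substrates or otherwise related genes, moved in both directions. Of 16 tested, 4 rose and 7 fell in WT, 6 rose and 6 fell in deficient, and 7 rose and 6 fell in mimetic (medians -0.03, 0.08 and 0.02). Efnb1, a transmembrane ephrin ligand, rose from 10.8 ± 1.1 CPM in vector to 14.6 ± 0.71 in WT, 24.3 ± 1.9 in deficient libraries and 21.1 ± 1.8 in mimetic (adjusted p = 0.000584, 1.53e-09 and 2.88e-08). Irs1, the insulin receptor adaptor, fell from 146 ± 4.4 CPM to 85.4 ± 3.1, 97.5 ± 2 and 95 ± 3.3 (adjusted p = 6.51e-12, 8.8e-10 and 3.12e-10). Bmp4, a secreted ligand, fell in WT by 0.71 and in deficient by 0.32 log2 units and rose in mimetic by 0.27 (adjusted p = 0.0111), a call lost without mimetic replicate 2 (adjusted p = 0.0709).

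Src-family kinases are listed with their regulators Csk and Pag1. Of 8 tested, 2 rose and 2 fell in WT, and 4 rose and 3 fell in deficient and in mimetic (medians 0.04, 0.35 and -0.04). Fyn, a kinase of this family, rose from 0.472 ± 0.21 CPM in vector to 12 ± 0.97 in WT, 5.3 ± 0.37 in deficient libraries and 6.06 ± 0.55 in mimetic. Pag1, a membrane adaptor that recruits the inhibitory kinase Csk, rose from 2.31 ± 0.17 CPM to 27.7 ± 0.55, 16.1 ± 1.2 and 25.4 ± 1. Both had adjusted p-values of at most 1.65e-11 in the 3 comparisons. Lyn was 16.4 ± 1.3 CPM in vector and 17.2 ± 0.53 in WT (adjusted p = 0.543), and fell to 8.93 ± 0.9 in deficient libraries and 8.82 ± 0.95 in mimetic (adjusted p = 3.08e-07 and 2.83e-07). Among these genes WT had the highest mean of Fyn and of Pag1, whereas deficient had the highest mean of Ptpn13.

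Genes that act with Ptpn11 gave no single direction. Of 24 RAS and MAPK adaptors and kinases tested, 11 rose and 8 fell in WT, 7 rose and 6 fell in deficient and 8 rose and 5 fell in mimetic (medians 0.07, -0.02 and 0.06). Irs2, the second insulin receptor adaptor, rose from 15.3 ± 1.9 CPM in vector to 62.2 ± 2 in WT, 33 ± 4 in deficient libraries and 46.5 ± 1.9 in mimetic (adjusted p of at most 1.82e-09). The docking protein Gab2 rose 1.91-fold in WT (adjusted p = 1.98e-07) and 1.24-fold in mimetic (adjusted p = 0.0197), the second call being lost without vector replicate 1 (0.0632) or 3 (0.114) or mimetic replicate 3 (0.0724). The ubiquitin ligase Cbl fell 1.74-fold in deficient (log2 fold change -0.80, adjusted p = 0.00119), although its libraries overlapped (36.5, 48.8 and 22.8 CPM in vector, 19.5, 16.9 and 25.5 in deficient). Without vector replicate 2 the change was -0.52 (adjusted p = 0.0118). Its fall in WT (1.41-fold, adjusted p = 0.0261) was lost without vector replicate 1 (adjusted p = 0.0632) or 2 (0.272) or WT replicate 3 (0.0936), and with DESeq2 (0.103) or limma-voom (0.073). In mimetic Cbl was not called (-0.44, adjusted p = 0.0524) but was without vector replicate 3 (0.00026), mimetic replicate 3 (0.0173), or deficient replicate 2 (0.0493) or 3 (0.0374). Cbl in mimetic was also called with RLE factors (0.0497) and with no filter (0.0495).

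Targets of MAPK feedback rose in 6 of 17 and fell in 6 in WT, rose in 8 and fell in 6 in deficient, and rose in 4 and fell in 3 in mimetic (medians -0.04, -0.08 and -0.01). Fosl1, an AP-1 subunit, rose 1.94-fold, 1.89-fold and 1.7-fold in the 3 lines. Egr1, an immediate early factor, fell 2.4-fold in WT (adjusted p = 3.58e-09) and 1.36-fold in deficient (adjusted p = 0.00123). The ERK phosphatase Dusp5 rose 2.17-fold in deficient (adjusted p = 4.14e-12) and 1.16-fold in mimetic (adjusted p = 0.0072), the second call being lost without vector replicate 1 (0.0523). In WT it was not called (0.14, adjusted p = 0.0509) but was without vector replicate 3 (0.0161), deficient replicate 3 (0.047) or mimetic replicate 1 (0.0427) or 3 (0.0495). Dusp5 in WT was also called with RLE factors (0.034), library size only (0.0266), DESeq2 (0.0321), no filter (0.0477) and at least 5 CPM in 3 libraries (0.0458). Of 9 tested dual-specificity MAPK phosphatases, which share Dusp4, Dusp5 and Dusp6 with that list, 5 rose and 2 fell in WT, 6 rose and 1 fell in deficient, and 4 rose and 1 fell in mimetic (medians 0.14, 0.56 and 0.14). The falls of these 9 numbered 1 in WT without vector, WT, deficient or mimetic replicate 2 or mimetic replicate 3, and 2 in deficient and in mimetic without vector replicate 2. Dusp1 rose from 1.91 ± 0.31 CPM in vector to 4.12 ± 0.55 in WT, 9.74 ± 0.75 in deficient libraries and 11.8 ± 0.42 in mimetic. Dusp9 rose 1.57-fold, 3.16-fold and 2.57-fold, with the call in WT (adjusted p = 0.00836) lost without WT replicate 1 (0.0992). Dusp10 fell 2.41-fold, 1.43-fold and 1.77-fold.

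Genes around Ptpn1 and Ptpn2, namely JAK kinases, STAT factors, their SOCS inhibitors and receptors, fell more often than they rose. Of 18 tested, 5 rose and 9 fell in WT, 6 rose and 11 fell in deficient and 4 rose and 11 fell in mimetic (medians -0.14, -0.30 and -0.22), beside 31%, 28.4% and 28.6% of all genes higher and 33.6%, 29.8% and 30.9% lower. Without deficient replicate 2 the genes that rose in deficient numbered 3. The interferon gamma receptor chain Ifngr1 fell from 201 ± 5 CPM in vector to 95.3 ± 4.9 in WT, 130 ± 5.2 in deficient libraries and 85.7 ± 1.6 in mimetic (adjusted p of at most 3.47e-10). Stat5a fell 1.8-fold, 1.44-fold and 1.33-fold (adjusted p of at most 0.000271).

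Adhesion genes that include substrates of Ptpn12 fell in 9 of 16 in WT, 6 in deficient libraries and 8 in mimetic, and rose in 1, 1 and 2 (medians -0.21, -0.11 and -0.20), where 33.6%, 29.8% and 30.9% of all genes fell and 31%, 28.4% and 28.6% rose. The number that rose was 2 in WT without vector replicate 3, and 2 in deficient without deficient replicate 1 or mimetic replicate 3. Lpxn, a relative of paxillin, fell from 9.22 ± 0.53 CPM in vector to 3.49 ± 0.083 in WT, 0.953 ± 0.019 in deficient libraries and 0.834 ± 0.17 in mimetic (adjusted p of at most 2.78e-08). The focal adhesion kinases fell as well, Ptk2b 2.94-fold, 1.54-fold and 2.49-fold, and Ptk2 1.39-fold, 1.44-fold and 1.94-fold. Ptpn12 itself rose in all 3 Zeb1 lines, as did 16.6% of all genes. Whether its rise bears on these genes was not tested.

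Of 17 genes listed here around Ptpn14 and YAP, not all of them parts of the YAP pathway, 10 rose and 6 fell in WT. In deficient 11 rose and 2 fell, and in mimetic 9 rose and 5 fell (medians 0.21, 0.15 and 0.14 for WT, deficient and mimetic). These stand beside 31%, 28.4% and 28.6% of all genes higher and 33.6%, 29.8% and 30.9% lower. Cyr61, a secreted matricellular target of YAP, rose from 47.2 ± 2.1 CPM in vector to 81.6 ± 5.5 in WT, 175 ± 12 in deficient libraries and 164 ± 6.6 in mimetic (adjusted p of at most 3.58e-10). Ctgf, another such target, fell 2.76-fold in WT (adjusted p = 7.03e-15) and 1.19-fold in mimetic (adjusted p = 0.000499). In deficient it was 181 ± 8.3 against 167 ± 7.1 CPM (0.12 log2 units, adjusted p = 0.0764). That difference was called without vector replicate 2 (0.0393), with library size only (0.0163) and with at least 5 CPM in 3 libraries (0.0338). Ctgf and Ptpn14 thus both had their lowest level in WT, whereas Cyr61 had its lowest level in vector. How many of all genes were lowest in WT was not counted. Kdr, a VEGF receptor and an endothelial marker, rose from 0.478 ± 0.26 CPM in vector to 5.91 ± 0.91 in deficient libraries and 2.4 ± 0.064 in mimetic (adjusted p = 2e-09 and 3.06e-06). In WT Kdr was 0.813 ± 0.29 CPM (adjusted p = 0.08). It was called there without vector replicate 2 (0.0374) or WT replicate 2 (0.0248), and with DESeq2 (0.0378). Of 4 endothelial markers listed, 3 are in the table, and their sum was 0.977 to 1.26 CPM in the vector libraries, 2.09 to 2.95 in WT, 8.38 to 10.3 in deficient and 5.06 to 5.63 in mimetic. That sum includes Kdr. Pecam1 was at or under 0.453 CPM as a mean in each line, while Ptprb, a receptor-type phosphatase of endothelium, rose from 0.442 ± 0.22 CPM in vector to 1.64 ± 0.24 in WT, 3.07 ± 0.068 in deficient and 2.43 ± 0.43 in mimetic (adjusted p = 2.97e-05, 9.32e-08 and 7.46e-07). Their part in the Kdr level was not tested.

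The profile of Ptpn13 was compared with that of each gene of at least 10 CPM in its highest line by Pearson's r of log2 CPM over the 12 libraries, which fall into 4 lines and share their scaling, so that r is given as a description. Of 9237 genes, the closest were Serpinb9, a granzyme inhibitor (r = 0.991), the claudin Cldn12 (0.991), the collagen chain Col6a1 (0.990), Kank1 (0.989) and Chst11, a chondroitin sulfotransferase (0.987). Cldn12 had 41.5 ± 1.1 CPM in vector, 73.2 ± 0.98 in WT, 119 ± 3.7 in deficient libraries and 99.4 ± 4.5 in mimetic, the same order of lines as Ptpn13. Serpinb9 and Kank1 had that order too, while Col6a1 and Chst11 were highest in mimetic. The most opposed profiles were those of Itsn1 (r = -0.992), Galnt7 (-0.991), Edil3 (-0.990), Pfkm (-0.990) and Vcam1 (-0.989), and Edil3, a secreted integrin ligand, went from 96.2 ± 7.7 CPM in vector to 33.6 ± 2.8 in WT, 16.4 ± 2.4 in deficient libraries and 17.9 ± 1.1 in mimetic. Among the relatives r was 0.90 for Ptpn11, 0.58 for Ptpn12, 0.31 for Ptpn14, -0.16 for Ptpn9, -0.18 for Ptpn2 and -0.25 for Ptpn1. Ptpn11 thus stood above 96.5% of the genes compared, although its levels spanned 196 ± 10 to 239 ± 6.4 CPM where those of Ptpn13 spanned 2.24 ± 0.54 to 175 ± 1.4.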

How the data were processed

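The authors deposited 1 table of raw counts per gene, with no normalisation and 1 column for each of 12 libraries (QuantSeq 3′ mRNA-Seq, forward kit, per the labels' protocols). The submitters' processing notes name STAR and the build mm10. Versions, counting tool, annotation and strand: not given in the sources used here. Among the 12208 listed genes the smallest count is 1, so genes with 0 counts in a library are not analysed here.

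Counts were analysed with edgeR 4.0.16 (R 4.3.3). filterByExpr kept 12027 genes, TMM factors were used, and 1 quasi-likelihood model over the 12 libraries, with a mean for every line, was tested in 6 pairs of lines. The standard error is the size of the log2 fold change over the square root of F. Alternatives were RLE factors, library size only, DESeq2 1.42.0, limma-voom (limma 3.58.1), no filter, at least 5 CPM in 3 libraries, the 2 lines alone, a replicate block, and leaving out each library. In data simulated for deficient against WT (11969 genes), far fewer genes were changed than were called in the real comparison. Among changed genes of at least 10 CPM, 76.9% of 39 with 1.25-fold, 100% of 36 with 1.5-fold and 100% of 38 with 2-fold changes were called. Of all unchanged genes 0.068% were called. These shares may therefore not carry over to the real comparison. The chi-square between replicates averaged 2.99 to 23.9 per gene, above sampling noise. It was largest in pairs with vector replicate 3 (13.86 and 21.49) or deficient replicate 3 (17.35 and 23.88), against at most 6.3 in the other pairs.

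Of the gene IDs, 12195 of 12208 are in GENCODE M21 (GRCm38); promoters are RefSeq's (GRCm38.p6). Ccn1 and Ccn2 are listed under the table's older symbols, Cyr61 and Ctgf. The members and gene lists were chosen with earlier results of these data known. Named genes are the members, Zeb1, up to 3 genes per list with the largest called change against vector and at least 5 CPM in the higher line, 3 neighbours per side, and the 5 closest and 5 most opposed profiles. The markers Ptpn6, Cd68, Pecam1 and Ptprb are named outside this rule, after their values were seen. A result that this rule also selects is not reported here.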

Additional observations from a re-analysis of the deposited data

How the results depend on the processing

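The log2 fold changes of Ptpn13 kept direction and call under every alternative run. Leaving out 1 library in turn gave -0.44 to -0.38 in mimetic against deficient, 2.38 to 2.44 in mimetic against WT and 2.80 to 2.83 in deficient against WT, and, with no test, 3.28 to 3.63, 6.10 to 6.44 and 5.68 to 6.02 for WT, deficient and mimetic against vector. The same settings gave 4 to 6 of the other 6 members called in WT against vector, 2 in each in deficient against vector, 2 to 4 in mimetic against vector, 0 to 1 in mimetic against deficient, 2 to 4 in mimetic against WT and 5 to 6 in deficient against WT. With library size only, 0 of 6 were called in mimetic against deficient. Differences near 0, none of them called, changed sign. Those of Ptpn1 in mimetic against vector (-0.02 without vector replicate 1), Ptpn9 in mimetic against vector (-0.03 without vector replicate 1, 0.00 without vector replicate 3, -0.03 without mimetic replicate 3), Ptpn11 in mimetic against deficient (0.00 without mimetic replicate 1) and Ptpn14 in deficient against vector (-0.01 without deficient replicate 3) did so with fewer samples. Over all left-out libraries these ranged from -0.02 to 0.03, -0.03 to 0.05, -0.07 to 0.00 and -0.01 to 0.21. Ptpn2 in deficient against vector (0.03 with library size only, 0.01 with at least 5 CPM) and Ptpn9 there (0.00 with library size only) did so too. Gab2 in deficient against vector turned to 0.04 with library size only, 0.01 with limma-voom, 0.02 with at least 5 CPM, 0.14 without vector replicate 2, and 0.02 and 0.06 without deficient replicates 1 and 2 (range -0.11 to 0.14). Against vector, Wdfy3 in WT turned to -0.12 without vector replicate 3 and -0.03 without WT replicate 2 (range -0.12 to 0.12), and Aff1 in WT to -0.07 without vector replicate 3 and 0.00 without WT replicate 1 or with at least 5 CPM (range -0.07 to 0.04). Ptpn6 in mimetic turned to -0.04 without vector replicate 2 and -0.03 without mimetic replicate 1 (range -0.04 to 0.05). Hsd17b11 in deficient turned to 0.06 without deficient replicate 3 (range -0.17 to 0.06), and Ptpn22 in deficient against WT to 0.02 with library size only and 0.01 with at least 5 CPM. The cause was not tested.

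Same-numbered libraries did not deviate together (r from -0.08 to 0.13 over 18 pairs, 1 above 0.1), and 4 of 12 libraries correlated best with their own number, so the numbers were not taken as pairing. With the replicate block Ptpn13 gave -0.42 in mimetic against deficient, Ptpn11 was called in deficient against WT (0.10, adjusted p = 0.0347) and no member's call was lost; Dusp5 in WT (0.0302) and Ctgf in deficient (0.0323) were called against vector, and no other named gene's call changed. With library size only, Agpat9 (0.0406) and Wdfy3 (0.0359) were called higher in mimetic than in vector, and Ptpn11 was called higher in deficient (adjusted p = 0.0229) and mimetic (0.0321) than in WT. Ptpn11 in deficient against WT was also called with at least 5 CPM (0.0256) and in the 2 lines alone (0.0418). Counts of list genes moved by over 1.5 times in few cases beyond those given above for single libraries. With library size only, falls of the further non-receptor genes in deficient went from 2 to 1, rises of adhesion genes there from 1 to 2, and falls of the dual-specificity genes in WT from 2 to 1. The block also gave 2 such rises, and the 2 lines alone 1 such fall. With at least 5 CPM, rises of receptor types in mimetic went from 5 to 3, of JAK-STAT genes in deficient from 6 to 3 and of adhesion genes in deficient from 1 to 2. With DESeq2, falls of RAS adaptors in WT went from 8 to 5.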
